A study of Saccharomyces cerevisiae with 9 samples.

Results

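The 7 genes described here encode the factors that let the small ribosomal subunit choose a start codon in budding yeast: SUI1 (eIF1), TIF11 (eIF1A), SUI2, SUI3 and GCD11 (the α, β and γ subunits of eIF2), TIF5 (eIF5) and FUN12 (eIF5B). They were chosen by function and matched by systematic name to the table of ribosome footprints, where they are 7 of 6952 entries, and all 7 were tested in every comparison. In scanning initiation, eIF2 carries the initiator tRNA to the small subunit, and eIF1 and eIF1A hold that subunit in a state that can move along the 5′ leader. Pairing of the tRNA with a start codon is followed by release of eIF1. The activating protein for GTP hydrolysis on eIF2 is eIF5, and eIF5B with eIF1A later joins the large subunit. Yeast eIF1 is also known to restrain its own synthesis through the poor context of the SUI1 start codon.

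The study asked how translation changes without the poly(A)-binding protein Pab1. Libraries came from Saccharomyces cerevisiae W303 cells in 3 groups of 3: pab1Δpbp1Δ, pbp1Δ and wild type (WT). PBP1, which encodes a Pab1-binding protein, was replaced by URA3 in both mutants. PAB1, which is essential while PBP1 is present, was replaced by kanMX in the double mutant. By genotype, pab1Δpbp1Δ and pbp1Δ cells thus share the loss of PBP1 and differ in PAB1. They also differ in growth, since the paper's methods give a longer doubling time for the double mutant than for pbp1Δ and WT. The part played by growth rate was not tested. Mutant libraries were separate isolates, the double mutants being derived from a pbp1Δ isolate, whereas the WT libraries were technical replicates of 1 strain, so that p-values against WT measure in part technical spread. Ribosome footprints count the ribosomes on an mRNA, and more mRNA cannot be told apart here from more ribosomes per mRNA.

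The libraries held 3149040 to 6903587 expected counts each, with pab1Δpbp1Δ replicate 3 the shallowest. PAB1 had normalized counts of 0, 3.00 and 0 in pab1Δpbp1Δ, against 5175 ± 529 in pbp1Δ and 5358 ± 258 in WT (SD, n = 3), and PBP1 was at most 2.97 in any mutant library, against 794 ± 17.7 in WT, so the deletions matched the labels. Ribosomal protein entries took 11.3% to 14.4% of the counts in pab1Δpbp1Δ, 15.6% to 19.7% in pbp1Δ and 15.99% to 17.4% in WT. The part played by this in the shares below was not tested beyond taking those entries out of the total.

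Of the 7 genes, 4 fell and 1 rose in pab1Δpbp1Δ against pbp1Δ, and none passed the test in pbp1Δ against WT. SUI1 and GCD11 fell most, SUI2 and TIF5 fell less, TIF11 rose, and SUI3 and FUN12 did not pass the test. The test was DESeq2's Wald test fitted over all entries of the 6 libraries compared, with a call at an adjusted p below 0.01. Among all 5772 entries tested in pab1Δpbp1Δ against pbp1Δ, 21.3% were called, 10.2% lower and 11.1% higher. In pbp1Δ against WT only 1.21% of 5638 entries were called. The median log2 fold change in pab1Δpbp1Δ against pbp1Δ was -0.62 over the 7 genes and 0.03 over all entries. The normalized counts below were scaled over all 9 libraries with DESeq2's size factors and are given for replicates 1, 2 and 3.

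**Figure D1:**
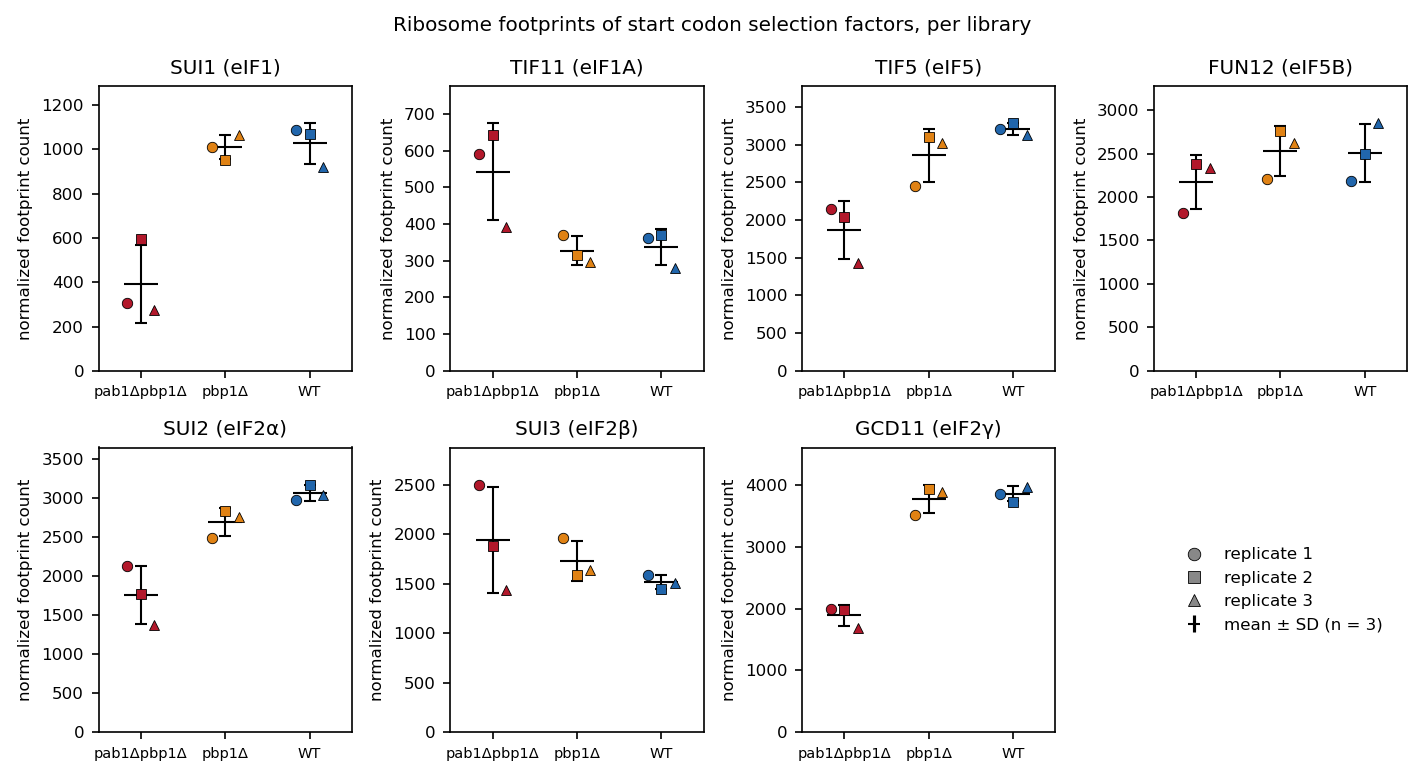
Normalized footprint counts (y axis, linear, from 0) of each factor in the 3 libraries of pab1Δpbp1Δ, pbp1Δ and WT, with a bar at the mean ± SD (n = 3) and a symbol for each replicate number. All 3 pab1Δpbp1Δ libraries lie below the pbp1Δ libraries for SUI1, GCD11, SUI2 and TIF5 and above them for TIF11, while the groups overlap for SUI3 and FUN12.

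SUI1 lies on chromosome XIV at 187170 to 187496 (R64, minus strand) and encodes a protein of 108 residues. Its normalized counts were 306, 596 and 273 in pab1Δpbp1Δ, 1013, 954 and 1063 in pbp1Δ, and 1088, 1071 and 922 in WT. Every double-mutant library was below every other library, and replicate 2 stood well above the other 2 double mutants. With a coefficient of variation of 45.3% in pab1Δpbp1Δ, against 5.41% in pbp1Δ and 8.88% in WT, SUI1 was also the gene of the 7 that varied most among double-mutant isolates. SUI1 fell by 1.37 on the log2 scale in pab1Δpbp1Δ against pbp1Δ (SE 0.28, adjusted p = 8.98e-06, n = 3 each), or 2.59-fold lower, with only 106 of the 5772 entries at a lower fold change. Leaving out 1 library at a time gave log2 fold changes of -1.80 to -1.17, each of them called.

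TIF11, on chromosome XIII at 789378 to 789839 (minus strand), encodes eIF1A, the partner of eIF1 on the small subunit, and moved the other way. TIF11 had normalized counts of 592, 643 and 392 in pab1Δpbp1Δ, 371, 314 and 296 in pbp1Δ, and 362, 370 and 280 in WT. The double mutants were highest, and the lowest of them stood just above the highest pbp1Δ library. TIF11 rose by 0.72 on the log2 scale in pab1Δpbp1Δ against pbp1Δ (SE 0.23, adjusted p = 0.00822), or 1.65-fold. This call sat close to the threshold and was made in 9 of 17 alternatives. It was lost with edgeR's quasi-likelihood test (adjusted p = 0.0230), with TMM factors, with both limma fits, without pab1Δpbp1Δ replicate 1 (0.0540) or 2 (0.0757) and without pbp1Δ replicate 2 (0.0648) or 3 (0.0794), the fold change staying positive at 0.59 to 0.91 over the libraries left out.

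The ratio of SUI1 to TIF11 within a library does not depend on the scaling between libraries. Per FPKM, this ratio was 0.617, 1.11 and 0.832 in pab1Δpbp1Δ, 3.25, 3.62 and 4.29 in pbp1Δ, and 3.59, 3.45 and 3.93 in WT. In the double mutants the eIF1 gene thus carried about the footprint density of the eIF1A gene, whereas in each pbp1Δ and WT library it carried more than 3 times that density. The ratio was 4.46-fold lower in pab1Δpbp1Δ than in pbp1Δ, a difference of -2.16 on the log2 scale, and 4.41-fold lower than in WT. All double mutants lay below all other libraries (exact two-sided permutation p = 0.1, the smallest that 3 against 3 libraries allow, adjusted p = 0.139 over 18 tests of 6 ratios). This pair joins the member that fell most to the only member called higher, so the ratio restates their counts. The share of other pairs of entries with such separation was not measured.

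GCD11, on chromosome V at 205251 to 206834 (plus strand), encodes the γ subunit of eIF2, which binds GTP and the initiator tRNA. Its normalized counts were 2000, 1974 and 1694 in pab1Δpbp1Δ, 3518, 3929 and 3883 in pbp1Δ, and 3855, 3728 and 3970 in WT. The double mutants were close to one another and far below both other groups. GCD11 fell by 1.01 on the log2 scale in pab1Δpbp1Δ against pbp1Δ (SE 0.14, adjusted p = 4.68e-11), or 2.02-fold lower, and was called in all 17 alternatives, at log2 fold changes of -1.06 to -0.90.

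SUI2, on chromosome X at 451020 to 451934 (plus strand), encodes the α subunit of eIF2, whose phosphorylation by Gcn2 limits initiation under amino acid starvation. Its normalized counts were 2127, 1768 and 1379 in pab1Δpbp1Δ, 2496, 2832 and 2761 in pbp1Δ, and 2982, 3174 and 3045 in WT. The 3 groups did not overlap, with the double mutants lowest and WT highest. SUI2 fell by 0.63 on the log2 scale in pab1Δpbp1Δ against pbp1Δ (SE 0.19, adjusted p = 0.00412), or 1.55-fold lower. The call was made in 9 of 17 alternatives, with none of them changing the direction. It was lost with edgeR (adjusted p = 0.0282), with total counts, with both limma fits, without pab1Δpbp1Δ replicate 2 (0.0202) or 3 (0.0206) and without pbp1Δ replicate 2 (0.0475) or 3 (0.0420).

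SUI3, on chromosome XVI at 100496 to 101353 (plus strand), encodes the β subunit of eIF2, which contacts eIF5 and the initiator tRNA, and did not follow the other subunits. SUI3 had normalized counts of 2502, 1883 and 1437 in pab1Δpbp1Δ, 1959, 1594 and 1643 in pbp1Δ, and 1591, 1447 and 1513 in WT. The double mutants spanned the range of both other groups, and replicate 1 was the highest library of each strain. The log2 fold change of SUI3 in pab1Δpbp1Δ against pbp1Δ was 0.15, with a 95% interval of -0.27 to 0.58 (adjusted p = 0.656), and it was -0.07 without pab1Δpbp1Δ replicate 1.

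Ratios of the eIF2 subunit genes within libraries restate the same data without dependence on the scaling between libraries. How often such ratios fail to overlap for other pairs of entries was not measured. The FPKM ratio of SUI3 to GCD11 was 2.36, 1.80 and 1.6 in pab1Δpbp1Δ, 1.05, 0.765 and 0.798 in pbp1Δ, and 0.778, 0.731 and 0.719 in WT. This ratio was 2.20-fold higher in the double mutants than in pbp1Δ, without overlap (exact permutation p = 0.1, adjusted p = 0.139). The ratio of SUI2 to SUI3 was 0.749, 0.827 and 0.845 in pab1Δpbp1Δ, 1.12, 1.57 and 1.48 in pbp1Δ, and 1.65, 1.93 and 1.77 in WT. Here pbp1Δ lay between the other groups, 1.3-fold below WT without overlap (exact permutation p = 0.1), and the double mutants were 1.71-fold below pbp1Δ. The ratio of SUI2 to GCD11 was 1.76, 1.49 and 1.35 in pab1Δpbp1Δ, and 1.176, 1.197 and 1.18 in pbp1Δ. In WT the ratio was 1.28, 1.41 and 1.27. SUI2 relative to GCD11 was thus 1.29-fold higher in pab1Δpbp1Δ than in pbp1Δ, also without overlap. The double mutants overlapped WT in this ratio (exact permutation p = 0.2), and pbp1Δ itself lay below WT without overlap. Between pab1Δpbp1Δ and pbp1Δ, α and γ kept closer to each other than either did to β.

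Counted per kilobase of coding sequence, the summed footprint density of the 3 subunit genes was split differently in each strain. SUI3 held 41.7% ± 2.82 of it in pab1Δpbp1Δ, 27.5% ± 3.55 in pbp1Δ and 23.4% ± 1.07 in WT (SD, n = 3). GCD11 held 22.6% ± 2.92, 32.4% ± 1.49 and 32.2% ± 0.823 in the same strains. SUI2 held 35.7% ± 0.254 in pab1Δpbp1Δ, 40.1% ± 2.08 in pbp1Δ and 44.4% ± 1.59 in WT.

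**Figure D2:**
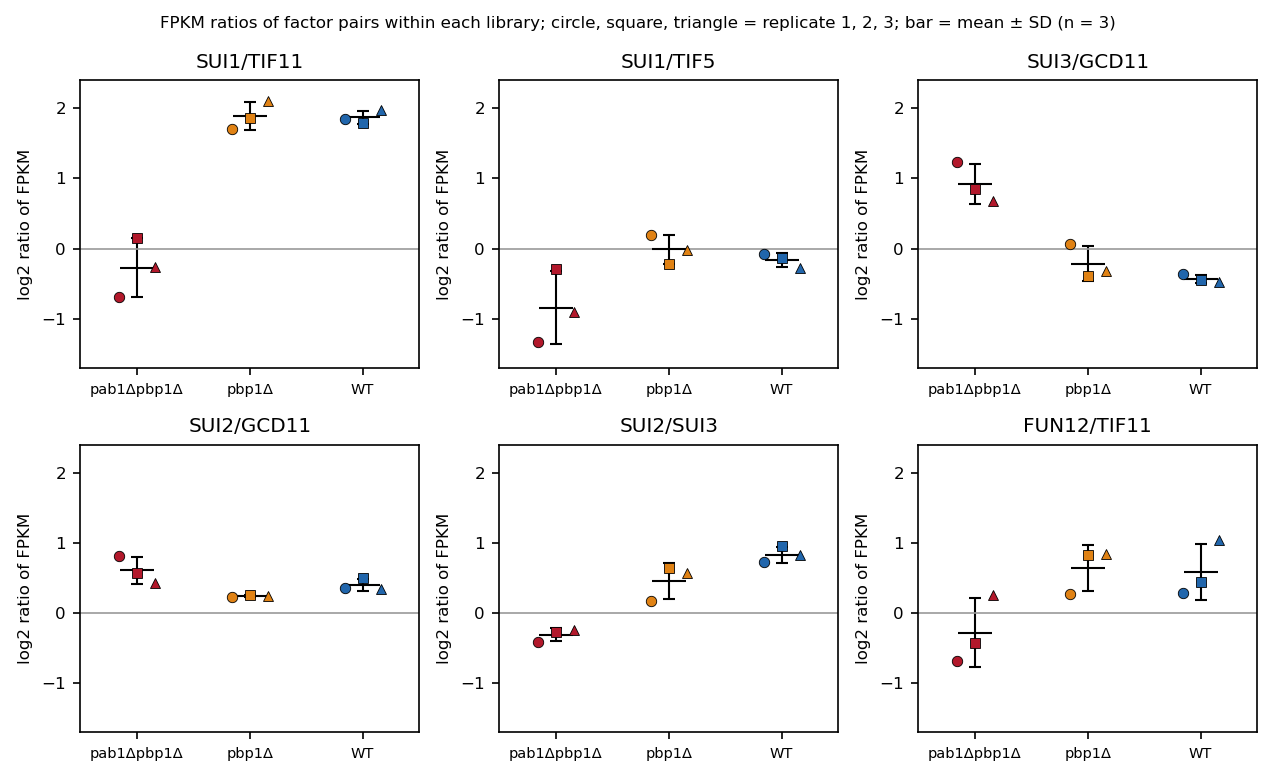
Ratios of FPKM between 2 factors within each library (y axis, log2, the grey line at equal FPKM) for pab1Δpbp1Δ, pbp1Δ and WT, with circles, squares and triangles for replicates 1, 2 and 3 and a bar at the mean ± SD (n = 3). The mean log2 ratio of SUI1 to TIF11 was -0.27 in pab1Δpbp1Δ, 1.89 in pbp1Δ and 1.87 in WT, and that of SUI3 to GCD11 was 0.92, -0.22 and -0.43 in these strains.

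TIF5, on chromosome XVI at 648704 to 649921 (plus strand), encodes eIF5, the GTPase-activating protein of eIF2. Its normalized counts were 2144, 2043 and 1433 in pab1Δpbp1Δ, 2457, 3097 and 3018 in pbp1Δ, and 3213, 3283 and 3132 in WT. As for SUI2, the groups did not overlap and WT was highest. TIF5 fell by 0.62 on the log2 scale in pab1Δpbp1Δ against pbp1Δ (SE 0.20, adjusted p = 0.00730), or 1.54-fold lower, and was called in 9 of 17 alternatives. The call was lost with edgeR (adjusted p = 0.0347), with total counts, with both limma fits, without pab1Δpbp1Δ replicate 2 (0.0125) or 3 (0.0348) and without pbp1Δ replicate 2 (0.0740) or 3 (0.0665). The FPKM ratio of SUI1 to TIF5 was 0.399, 0.817 and 0.532 in pab1Δpbp1Δ, and 1.147, 0.862 and 0.985 in pbp1Δ. In WT the ratio was 0.947, 0.913 and 0.824. On average SUI1 fell further than TIF5, the ratio being 1.78-fold lower in pab1Δpbp1Δ than in pbp1Δ without overlap (exact permutation p = 0.1, adjusted p = 0.139). However, pab1Δpbp1Δ replicate 2 lay close to pbp1Δ replicate 2 and to WT replicate 3.

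FUN12, on chromosome I at 76427 to 79435 (plus strand), encodes eIF5B, the GTPase of subunit joining and the longest of these proteins at 1002 residues. FUN12 had normalized counts of 1820, 2381 and 2329 in pab1Δpbp1Δ, 2208, 2764 and 2624 in pbp1Δ, and 2185, 2495 and 2849 in WT. The 3 groups overlapped, and replicate 1 was the lowest library of each strain. The log2 fold change of FUN12 in pab1Δpbp1Δ against pbp1Δ was -0.23, with a 95% interval of -0.57 to 0.10 (adjusted p = 0.322). The FPKM ratio of FUN12 to TIF11, which acts with eIF5B in subunit joining, was 0.621, 0.746 and 1.2 in pab1Δpbp1Δ, 1.204, 1.77 and 1.79 in pbp1Δ, and 1.215, 1.36 and 2.05 in WT. It was 1.9-fold lower in pab1Δpbp1Δ than in pbp1Δ (exact permutation p = 0.1, adjusted p = 0.139), but pab1Δpbp1Δ replicate 3 and pbp1Δ replicate 1 were nearly equal.

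In all, 5 of the 7 genes had groups that did not overlap between pab1Δpbp1Δ and pbp1Δ, 4 of them below and 1 above, which held for 46% of all entries tested, 22.1% below and 23.9% above. With edgeR, SUI1 (adjusted p = 0.00546) and GCD11 (0.00122) were the 2 genes called, where 16.4% of the entries it tested were. With limma on log2(FPKM + 1), GCD11 alone was called (adjusted p = 0.00282), where 10.9% of the entries it tested were, and SUI1 just missed the threshold (0.0120).

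The fold changes of the 7 genes were small after the loss of PBP1 alone, where few entries of any kind were called. In pbp1Δ against WT the 7 log2 fold changes lay between -0.19 for SUI2 and 0.19 for SUI3, none was called by DESeq2 or edgeR, and none had an unadjusted p below 0.05. Over all 5638 entries 1.21% were called by DESeq2, 0.869% lower and 0.337% higher, while edgeR called 0.0192% and limma 0.016% of the entries they tested. The 95% interval was -0.27 to 0.21 for SUI1, -0.40 to 0.30 for TIF11 and -0.22 to 0.16 for GCD11, so changes of the size seen in the double mutants lay outside it for each of these genes. SUI2 and TIF5 were below WT and SUI3 above WT without overlap, as were 11.5% of all entries below and 11.8% above, or 23.3% in either direction.

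The same 5 genes were called in pab1Δpbp1Δ against WT, a comparison that shares the double-mutant libraries with the one above and in which 30.9% of 5880 entries were called, 15.3% lower and 15.7% higher. SUI1 fell by 1.39 (adjusted p = 1.49e-06), GCD11 by 1.03 (3.77e-14), SUI2 by 0.81 (1.87e-05) and TIF5 by 0.78 (3.28e-05) on the log2 scale, and edgeR called these 4 as well, where it called 31.9% of the entries it tested. Limma on log2(FPKM + 1) called SUI1 and GCD11, where it called 22.9%. TIF11 rose by 0.68 (adjusted p = 0.00814 with DESeq2), a call that edgeR (0.0169), TMM factors and both limma fits did not make and that was lost without pab1Δpbp1Δ replicate 1 (0.0495) or 2 (0.0742) and without WT replicate 1 (0.0264), 2 (0.0275) or 3 (0.0829). SUI3 had a log2 fold change of 0.35 (adjusted p = 0.149) and passed the test without pab1Δpbp1Δ replicate 3, at 0.53 (0.00781). FUN12 had a log2 fold change of -0.21 (adjusted p = 0.315). Groups did not overlap for the 5 genes called, as for 55.1% of all entries, 26% below and 29.1% above.

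**Figure D3:**
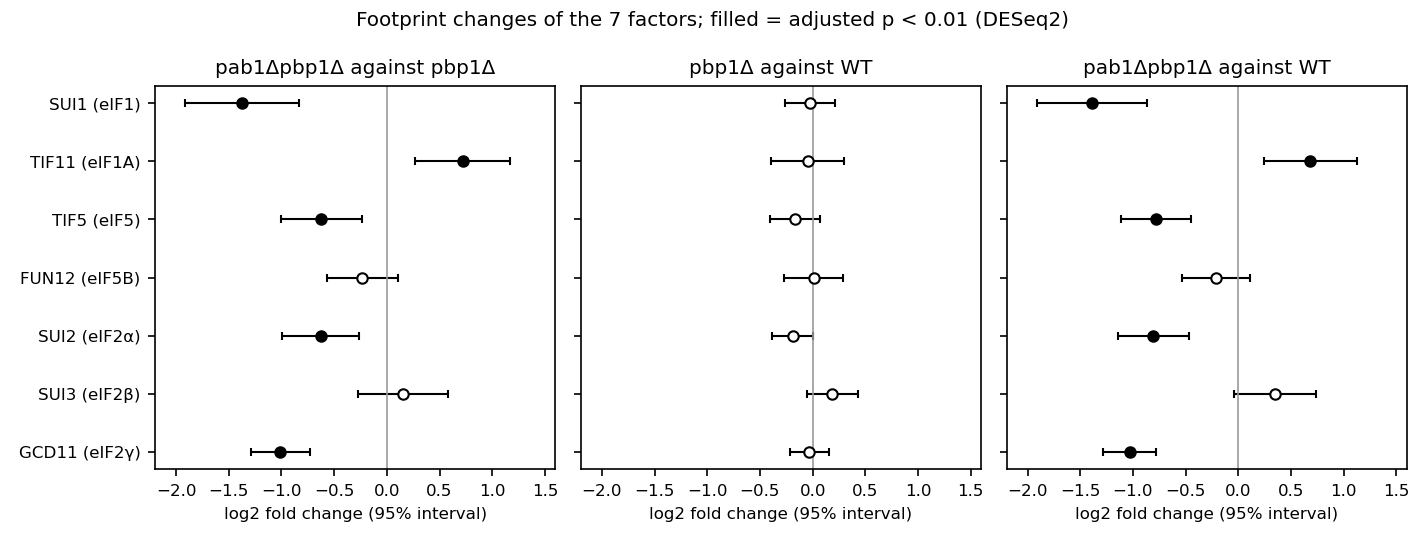
DESeq2 log2 fold changes (x axis) with 95% intervals of the 7 factors in pab1Δpbp1Δ against pbp1Δ, pbp1Δ against WT and pab1Δpbp1Δ against WT (n = 3 libraries a group), with filled circles at an adjusted p below 0.01. The intervals of SUI1 and GCD11 lie far below 0 in both double-mutant comparisons, and all 7 intervals include 0 in pbp1Δ against WT.

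The levels of the 7 genes relative to one another were compared per length, as FPKM. In WT the order was SUI2 (495 ± 22.9), TIF5 (399 ± 21.2), GCD11 (375 ± 8.93), SUI1 (358 ± 42.8), SUI3 (278 ± 18.0), FUN12 (147 ± 14.8) and TIF11 (98.7 ± 17.4; SD, n = 3), where TIF5 overlapped GCD11 and GCD11 overlapped SUI1. In pbp1Δ SUI2 was again highest (437 ± 28.3), GCD11, TIF5, SUI1 and SUI3 followed with each overlapping the next, and FUN12 and TIF11 were lowest (149 ± 16.7 and 95.4 ± 11.2). In pab1Δpbp1Δ SUI3 came first (383 ± 106), followed by SUI2 (305 ± 65.1), TIF5 (251 ± 51.9), GCD11 (198 ± 18.1), TIF11 (170 ± 42.0), SUI1 (147 ± 67.2) and FUN12 (137 ± 19.7), and every gene overlapped its neighbours. FPKM divides by transcript length including untranslated parts, and coding sequence makes up 62.3% of the effective length of SUI1, against 96.6% for FUN12. Per kilobase of coding sequence, SUI1 moved to the first place in pbp1Δ (566 ± 33.7 counts per kilobase, scaled to library totals as RPKM is) and the second in WT (575 ± 69.1), and to the fourth in pab1Δpbp1Δ (236 ± 107). These places are not separated from their neighbours, since SUI1 overlapped SUI2 in pbp1Δ, both SUI2 and TIF5 in WT, and both TIF5 and GCD11 in pab1Δpbp1Δ.

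Together the 7 genes took 0.226%, 0.222% and 0.176% of all footprints in pab1Δpbp1Δ, 0.258%, 0.282% and 0.281% in pbp1Δ, and 0.286%, 0.288% and 0.276% in WT. Every double mutant was below every other library. The difference in mean share was -0.0658 percentage points for pab1Δpbp1Δ against pbp1Δ (exact permutation p = 0.1, the smallest possible) and -0.00967 points for pbp1Δ against WT, with overlap (exact permutation p = 0.4). The Wilson 95% interval of the shallowest library, 0.171% to 0.180% in pab1Δpbp1Δ replicate 3, covers counting error only and was narrower than the spread between the double mutants.

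Across the other initiation factors and their partners, calls in pab1Δpbp1Δ against pbp1Δ went one way. Of 31 genes in 5 lists, 14 fell, none rose and 17 did not pass the test, with a median log2 fold change of -0.51, where 10.2% of all entries were called lower and 11.1% higher. By edgeR 8 fell, with 879 calls over all entries in place of 1230. DESeq2 gave 9 without pab1Δpbp1Δ replicate 2 (997 calls over all entries), 9 without pab1Δpbp1Δ replicate 3 (1001), 6 without pbp1Δ replicate 2 (756) and 8 without pbp1Δ replicate 3 (786). In eIF3, the scaffold of the scanning complex, 4 of 6 genes fell (median -0.64), NIP1 at -0.96 (adjusted p = 2.11e-06), HCR1 at -0.96 (0.000121), RPG1 at -0.78 (0.000206) and PRT1 at -0.51 (0.00884), while TIF35 was highest at -0.10 (0.802) and did not pass. In eIF2B, which exchanges GDP for GTP on eIF2, 2 of 5 genes fell (median -0.63), GCD2 at -0.85 (adjusted p = 9.30e-06) and GCD6 at -0.63 (0.000720), and GCD7 was highest at -0.34 (0.0977). In a mixed list of 4 further genes, 3 fell. CDC123, the assembly factor of eIF2, was at -0.72 (adjusted p = 0.00862), TMA64 at -0.57 (0.00989) and YGR054W at -1.13 (6.62e-10). GCN2, the eIF2α kinase, had -0.35 (0.250) and did not pass. YGR054W was called in all 17 alternatives, NIP1, HCR1 and GCD2 in 15 or more, RPG1 in 13 and GCD6 in 12. PRT1 was called in 6, CDC123 in 8 and TMA64 in 4, and each of these 3 lost its call with the replicate block (adjusted p = 0.0120 for PRT1, 0.0342 for CDC123 and 0.0283 for TMA64).

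In the cap-binding and mRNA activation list, 4 of 10 genes fell (median -0.14), where 10.2% of all entries did. Both eIF4G genes were among them, TIF4631 at -0.82 (adjusted p = 9.33e-06) and TIF4632 at -0.84 (0.000717), as were TIF3 (eIF4B) at -0.70 and the scanning helicase gene DED1 at -0.51. TIF4631 was called in 15 of 17 alternatives, TIF4632 in 14, TIF3 in 10 and DED1 in 6. By edgeR neither TIF3 (adjusted p = 0.0169) nor DED1 (0.0396) was called. CDC33, the cap-binding eIF4E, had 0.03 (adjusted p = 0.917). DBP1, a paralog of DED1, had the highest log2 fold change, 1.32 (adjusted p = 0.050), at 21.4, 33.8 and 37.2 normalized counts in pab1Δpbp1Δ, against 11.4, 9.15 and 16.2 in pbp1Δ. Of 6 other ribosome-bound factors 1 fell, a share near that of all entries, the recycling factor gene RLI1 at -1.0 (adjusted p = 1.02e-07), and TMA22 was highest at 0.56 (0.0195). Counts of TIF1 and TIF2, and of HYP2 and ANB1, are uncertain because each pair is nearly identical.

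**Figure D4:**
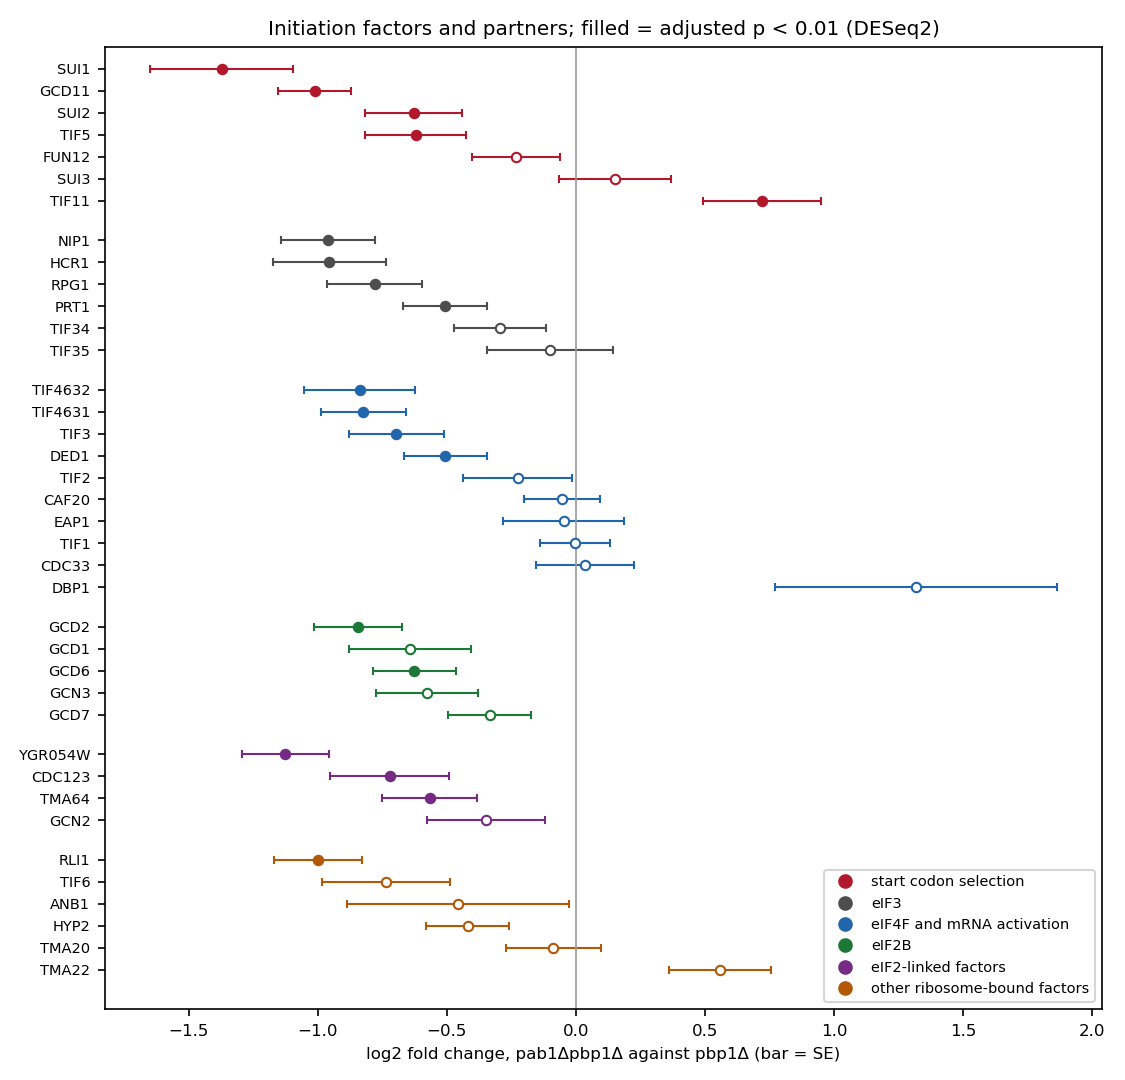
DESeq2 log2 fold changes in pab1Δpbp1Δ against pbp1Δ (x axis, bars are SE, n = 3 libraries a group) of the 7 start codon selection factors and the 31 genes of the 5 other lists, with filled circles at an adjusted p below 0.01. The filled circles all lie below 0 except that of TIF11 at 0.72.

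In pbp1Δ against WT, CAF20, an eIF4E-binding protein, was the 1 gene of the 31 that passed the test, at 0.49 (adjusted p = 0.00198 with DESeq2). It was not called by edgeR, nor without pbp1Δ replicate 2 or any 1 of the WT libraries. With the replicate number as a block, 3 further genes passed lower, RPG1 (-0.37), NIP1 (-0.33) and TIF4631 (-0.40). In pab1Δpbp1Δ against WT 15 of the 31 genes fell and 2 rose, CAF20 (0.44) and DBP1 (1.81), of which DBP1 did not pass with the block (adjusted p = 0.0409). The count that rose was 1 without pab1Δpbp1Δ replicate 3 and 0 without any 1 of the WT libraries.

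Within the set, SUI2 and TIF5 varied most alike over the 9 libraries (Pearson r = 0.98 of log2 normalized counts), followed by SUI2 and GCD11 (0.94). The most negative pairs were TIF11 and GCD11 (r = -0.78), SUI3 and FUN12 (-0.74) and TIF11 and FUN12 (-0.70), and SUI1 with TIF11 had -0.61. These correlations describe 9 libraries in 3 groups and carry no p-value. A difference between groups raises them for genes that move the same way and lowers them for genes that move opposite ways. Among the 3829 entries that averaged 100 or more normalized counts, those most like SUI1 were ARG56 (r = 0.987), DHH1 (0.983) and PHO8 (0.982), and those most like TIF11 were TRX2 (0.978), NBA1 (0.966) and HEM25 (0.966). GCD11 was most like OAC1 (r = 0.996), HXT4 (0.993) and PMR1 (0.993), SUI2 like PHO84 (0.991), RAS2 (0.986) and MET6 (0.986), and SUI3 like DAL82 (0.978), GSR1 (0.95) and TLG1 (0.947). TIF5 was most like RPL42B (r = 0.988), RSC3 (0.988) and SUI2 (0.985), so that SUI2 was the 1 member found among another member's nearest entries, and FUN12 was most like APL5 (0.969), TFC8 (0.954) and KOG1 (0.946).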

How the data were processed

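Ribosome footprints were measured in 9 libraries of yeast grown in rich medium. The authors digested lysates with RNase I, ligated linkers with random nucleotides for removing duplicates, and, per the processing notes and methods, used cutadapt 1.9, UMI-tools, Bowtie 1.0.0 and RSEM 1.3.0 against build R64, with spliced and unspliced transcripts. The deposited tables hold RSEM expected counts, estimated and not normalized, and the deposited FPKM values, scaled to effective transcript length and to all mapped fragments. Reads shared by near-identical genes were split by RSEM.

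The isoform table's expected counts, rounded to whole numbers, were tested with DESeq2 1.42.0 (R 4.3.3) for each pair of groups over all entries, with independent filtering at 0.01 and calls at adjusted p < 0.01, as in the study's methods. Alternatives were edgeR 4.0.16, TMM factors, size factors without ribosomal proteins, total counts, a mean count of at least 10, no filtering, the gene table, all 9 libraries, the replicate block, a threshold of 0.05, limma 3.58.1 on log2(FPKM + 1) and log2(FPKM + 0.1), and leaving out each library. Ratios and shares used exact two-sided permutation tests (scipy 1.17.1). Counts simulated on these libraries were also tested, with the changed entries drawn from those averaging 100 or more normalized counts. At a log2 change of 1 DESeq2 recovered 71% of 100 changed entries in pab1Δpbp1Δ against pbp1Δ (6952 entries) and edgeR 58%. False calls numbered 7 and 3 in fits that also held 100 entries changed by 1.5. The simulated counts used the spread that DESeq2 had fitted, so these numbers do not measure error rates in the real libraries. Wilson intervals at 95% cover counting error only. Symbols and coordinates came from RefSeq (R64), where 6259 of 6952 entries matched. No 2 libraries of a group were alike within sampling noise (chi-square per degree of freedom 6.09 or more).

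Deviations of same-numbered libraries from their group means correlated at 0.30, 0.42 and -0.16 between pab1Δpbp1Δ and pbp1Δ, at 0.62, 0.21 and 0.37 between pbp1Δ and WT and at 0.39, 0.24 and 0.10 between pab1Δpbp1Δ and WT, all above 0.1 in the last 2 pairs of groups. The pairing comes from these values alone, since the labels give no shared batch. The paper's methods say that libraries were multiplexed for sequencing but do not name the sets. Sequencing run therefore cannot be told apart here from strain or replicate number.

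The members, the lists and the rule for named genes (all members, the lowest and the highest of each list, any called gene where useful, and the 3 entries most correlated with each member) were chosen with earlier results of these data known. Start codon context was not analysed here.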

Additional observations from a re-analysis of the deposited data

How the results depend on the processing

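In pab1Δpbp1Δ against pbp1Δ the count of 5 members called became 2 with edgeR, 3 with total counts and 1 with limma at either pseudocount, and 2 to 5 on leaving out 1 library. GCD11 was called in every alternative and SUI1 in all but limma. In pab1Δpbp1Δ against WT the 5 members became 2 and 3 with limma at pseudocounts of 1 and 0.1, and 4 to 6 on leaving out 1 library. In pbp1Δ against WT none was called under any alternative, and the signs of SUI1 (-0.103 to 0.0158), TIF11 (-0.169 to 0.0232), GCD11 (-0.0629 to 0.0195) and FUN12 (-0.0797 to 0.108) changed on leaving out 1 library, as did that of SUI3 in pab1Δpbp1Δ against pbp1Δ (-0.0738 to 0.330). The replicate block left the members called at 5, 0 and 5 in the 3 comparisons and changed no call of a member. Total counts raised the median of all entries by 0.12 in pab1Δpbp1Δ against pbp1Δ and by 0.11 against WT. Of the 31 other genes, those lower in pab1Δpbp1Δ against pbp1Δ (14) became 8 with edgeR and 2 and 3 with limma, and 6 to 16 on leaving out 1 library, and those higher (0) became 1 with total counts, all 9 libraries, the replicate block and a threshold of 0.05, and 0 to 1 on leaving out 1 library. In pbp1Δ against WT those lower (0) became 3 with the replicate block, and those higher (1) became 0 with edgeR and both limma fits and 0 to 1 on leaving out 1 library. In pab1Δpbp1Δ against WT those higher (2) became 1 with edgeR and with the replicate block, and 0 to 2 on leaving out 1 library. Without ribosomal protein entries in the total, the share taken by the members differed by -0.0913 percentage points in pab1Δpbp1Δ against pbp1Δ and by -0.101 against WT. All ratios kept their side of the threshold, which 3 against 3 libraries cannot pass. The cause of these changes was not tested. Leaving out a library leaves 5, and pab1Δpbp1Δ replicate 3 had the least depth.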
